A study of Mus musculus with 16 samples.

Results

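Complement is represented here by 9 genes measured in mouse brain: C1qa, C1qb and C1qc, which encode the chains of C1q; C4b and C3, the components that are cleaved when the cascade runs; C3ar1 and C5ar1, the receptors of the released fragments; and Serping1 and Cd59a, which restrain it. They were chosen by symbol through the Ensembl identifiers of the table, and all 9 were found among 21804 genes. C1q binds its targets and starts the classical pathway, in which C4 and then C3 are cleaved, and C3 fragments tag a surface for uptake while small fragments signal through their receptors. Serping1 is the inhibitor of the proteases that C1q carries, and Cd59a encodes a membrane-anchored protein that blocks the final pore. In brain, microglia make most C1q, and complement tagging is known for its part in the removal of synapses by microglia.

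The study sequenced polyA-enriched RNA of C57BL/6 mice at 4 months of age that carried the ret allele of Pdgfb, which encodes a growth factor that endothelial cells release to hold pericytes at vessels. Pdgfb ret/ret mice carry 2 such alleles, and the controls, Pdgfb ret/wt, carry 1, so no group was free of it. Each of 8 animals gave 1 piece of cortex, which is not prone to calcification, and 1 piece of thalamus, which makes 4 groups of 4 libraries. In ret/ret thalamus the pieces were calcifications picked out by their autofluorescence, and in ret/wt thalamus they were tissue of the matching region, without calcifications. Genotype and the way of dissection therefore cannot be told apart in thalamus. The title of the series names microglia and TREM2 in small vessel calcification, which is the context in which microglial C1q is set against the other complement genes here. Each replicate number stands for 1 animal within a genotype, and equal numbers in ret/wt and ret/ret are different animals.

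The libraries held between 13415391 and 29135064 estimated counts. Levels are given as CPM (counts of a gene relative to the total of its library, on the usual CPM scale) after TMM scaling over all 16 libraries, and 3 counts, taken as the floor, corresponded to 0.103 to 0.224 CPM. Mitochondrial genes took 3.22% to 12.1% of the counts. The summed level of 6 cerebellum markers was 887 CPM in ret/wt cortex replicate 3 and 2488 CPM in replicate 2 of ret/ret cortex, while the other 6 cortex libraries had 15.2 to 75.7 CPM. The animals of those 2 libraries were also those with reads from a Y-linked gene, and each comparison was repeated without them. All 12 microglial markers on the list used here were detected in every group. In bulk tissue, fewer cells of a type and less RNA per cell cannot be told apart.

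The 3 C1q genes lie side by side on chromosome 4 of GRCm38, all on the minus strand and all protein coding: C1qb at 136880129 to 136886187, C1qc at 136889804 to 136893065 and C1qa at 136895917 to 136898803. Their levels followed each other closely over the 16 libraries, as described further on, so the promoter windows of C1qb and C1qc are shown. Each runs 5′ to 3′ in the direction of the gene around its RefSeq start (GRCm38.p6), at chr4:136886151-136886450 for C1qb and chr4:136892865-136893164 for C1qc. By the gene coordinates above, which come from other gene models, most of the C1qc window lies inside the gene. Capitals mark GAGGAA, the core bound by PU.1, a transcription factor of myeloid cells, or its reverse complement.
C1qb: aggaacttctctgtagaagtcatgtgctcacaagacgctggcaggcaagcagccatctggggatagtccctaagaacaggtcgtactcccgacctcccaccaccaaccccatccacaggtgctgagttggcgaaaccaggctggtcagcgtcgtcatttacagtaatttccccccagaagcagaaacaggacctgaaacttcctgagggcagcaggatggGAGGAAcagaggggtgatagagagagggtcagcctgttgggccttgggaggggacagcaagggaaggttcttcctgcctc
C1qc: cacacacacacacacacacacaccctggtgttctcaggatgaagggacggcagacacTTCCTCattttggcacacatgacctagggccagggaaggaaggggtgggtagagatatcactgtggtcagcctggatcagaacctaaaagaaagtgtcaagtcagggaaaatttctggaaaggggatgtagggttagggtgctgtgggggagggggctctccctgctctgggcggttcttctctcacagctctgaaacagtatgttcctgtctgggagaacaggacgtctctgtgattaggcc

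GAGGAA was searched on both strands in the windows of the 6 members listed there, and it occurred 1 time each in C1qb, C1qc and Cd59a. It was not found in those of C3, C3ar1 and C5ar1. Of 32851 mouse promoter windows of this length, 28.3% held it, so its presence in both C1q windows is a description and does not show a binding site. A second motif, the interferon-gamma activated element TTCNNNGAA, was in none of the 6 windows and in 8.3% of all. The interferon-stimulated response element core GAAANNGAA was found 1 time each in C5ar1 and Cd59a, and 8.56% of all windows held it. C1qa, C4b and Serping1 have no entry in that table.

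The other members are protein-coding genes outside the C1q cluster. C4b lies on chromosome 17 at 34728380 to 34743882 and C3 on the same chromosome at 57203970 to 57228136. Serping1 (84765387 to 84775444) and Cd59a (104095801 to 104115354) are both on chromosome 2. C3ar1 is on chromosome 6 at 122847138 to 122856161, and C5ar1 on chromosome 7 at 16246743 to 16259540. C4b shared 48.3% of its transcript sequence, counted in stretches of 31 bases, with its near-copy C4a, which is not analysed here. Counts of C4b may therefore hold reads that fit both genes. Cd59a shared 8.23% with Cd59b, and the C1q chains shared none with each other.

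Per length of transcript, C1q stood far above the rest. In ret/wt cortex, CPM per kilobase of exon was 31.5 ± 4.57 for C1qb, 21.6 ± 3.06 for C1qa and 13.5 ± 2.86 for C1qc (SD, n = 4). C4b followed at 3.81 ± 2.5, and Serping1 at 2.95 ± 0.878 and Cd59a at 2.9 ± 0.565 did not differ from it beyond their spread. The receptors were low, with C3ar1 at 0.412 ± 0.142 and C5ar1 at 0.215 ± 0.084, and C3 was lowest at 0.0908 ± 0.0911 CPM per kilobase. In ret/ret thalamus the order began in the same way, with C1qb at 63.6 ± 22.9, C1qa at 56.9 ± 23.5 and C1qc at 29.3 ± 13.4 CPM per kilobase. There, Cd59a at 15.1 ± 6.42 and C4b at 15 ± 12 came next and overlapped, and Serping1 stood at 5.66 ± 5.46. C3, at 1.23 ± 0.982, was above both receptors in mean there, at a spread that overlaps C3ar1 (0.699 ± 0.154).

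**Figure D1:**
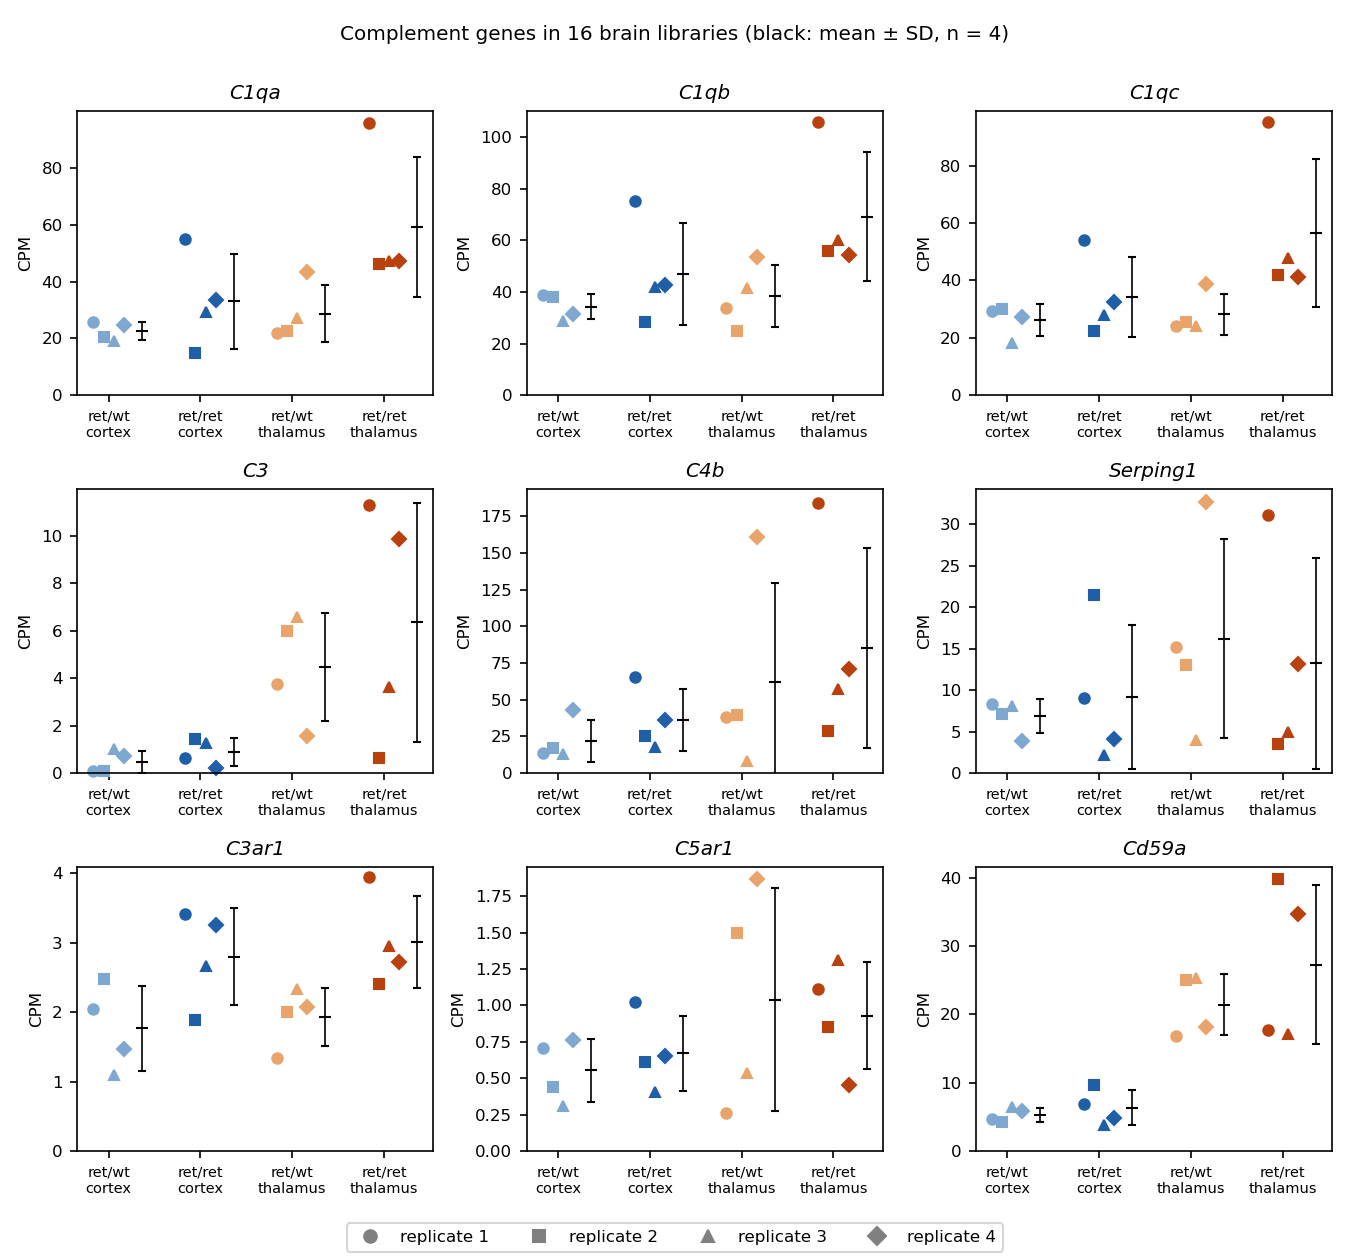
Normalised level (CPM, y axis from 0, a separate scale in each panel) of the 9 complement genes in every library of the 4 groups; symbols mark replicates, and black bars the mean ± SD of 4 libraries, cut at 0. In thalamus the ret/ret libraries of C1qa (46.3 to 95.9) all lie above the ret/wt ones (21.8 to 43.5), while C4b and Serping1 are led by 1 library in each thalamus group, and Cd59a is higher in thalamus than in cortex in both genotypes.

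The recognition subunits were higher in calcified ret/ret thalamus than in ret/wt thalamus in every library, although no gene passed the threshold in this comparison. C1qa was at 21.8, 22.5, 27.1 and 43.5 CPM in replicates 1 to 4 of ret/wt thalamus and at 95.9, 46.3, 47.3 and 47.2 CPM in those of ret/ret thalamus. The groups did not overlap, but the gap between ret/wt replicate 4 and the lowest ret/ret library was small, and ret/ret replicate 1 stood well above the rest. C1qb was at 33.9, 24.8, 41.7 and 53.4 CPM in ret/wt and at 106, 56, 60 and 54.5 CPM in ret/ret thalamus. Its groups nearly touched, with ret/wt replicate 4 just under ret/ret replicate 4. C1qc was at 24.1, 25.4, 24.2 and 38.9 CPM in ret/wt and at 95.1, 42, 47.9 and 41 CPM in ret/ret thalamus, with the same 2 libraries at the top of their groups.

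By edgeR (quasi-likelihood F test), the thalamus difference between genotypes was a log2 fold change of 1.07 ± 0.33 (SE) for C1qa, 0.88 ± 0.31 for C1qb and 1.03 ± 0.32 for C1qc. These are 2.1, 1.83 and 2.05-fold. The unadjusted p was 0.00878, 0.0167 and 0.00865, and the p adjusted by the Benjamini-Hochberg method over all genes tested (adjusted p) was 1 for each. edgeR called 0% of 14767 genes at the threshold of 0.05 on adjusted p, 581 genes (3.93%) had an unadjusted p under 0.05, and DESeq2 called 37 genes, none of them among the 9. In the same comparison, 3 of the 9 complement genes had an unadjusted p under 0.05, all 3 of them C1q chains. Without ret/ret replicate 1 the value of C1qa was 0.72, of C1qb 0.58 and of C1qc 0.65, and without ret/wt replicate 4 they were 1.37, 1.10 and 1.26.

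The receptor C3ar1, which binds the C3a fragment and in brain is mainly a microglial gene, had a low level with a similar layout. It was at 1.34, 2, 2.33 and 2.07 CPM in ret/wt thalamus and at 3.95, 2.41, 2.96 and 2.72 CPM in ret/ret thalamus. The groups did not overlap, by the narrow step from 2.33 to 2.41 CPM, or from 39 to 54 counts. Its log2 fold change was 0.67 ± 0.35 (unadjusted p = 0.0849, edgeR adjusted p = 1). C1qa, C1qb, C1qc and C3ar1 were thus the 4 of 9 members whose ret/ret thalamus libraries all lay above all ret/wt ones, against 1.7% of all genes tested.

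The remaining 5 members overlapped between genotypes in thalamus. C4b was at 38.3, 39.3, 8.19 and 161 CPM in ret/wt and at 184, 28.8, 57.2 and 70.8 CPM in ret/ret thalamus. Its range ran from ret/wt replicate 3 to ret/ret replicate 1, and ret/wt replicate 4 was the second highest library of all 16. The log2 fold change of C4b was 0.48 ± 0.79, and it was -0.25 without ret/ret replicate 1 and 1.64 without ret/wt replicate 4. C3 was at 3.76, 5.99, 6.58 and 1.55 CPM in ret/wt and at 11.3, 0.626, 3.64 and 9.86 CPM in ret/ret thalamus, a log2 fold change of 0.55 ± 0.73. The ret/ret libraries of C3 held both the highest and the lowest value of the 8. Without ret/wt replicate 4 and ret/ret replicate 1 together, a setting chosen after seeing the data, C3 had a log2 fold change of -0.17.

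Serping1 was at 15.2, 13, 3.95 and 32.6 CPM in ret/wt and at 31.1, 3.53, 4.95 and 13.1 CPM in ret/ret thalamus. The highest 2 libraries came from different genotypes and were the same 2 that led C4b. Its log2 fold change of -0.27 ± 0.73 became -1.16 without ret/ret replicate 1 and 0.36 without ret/wt replicate 4. Cd59a was at 16.9, 25.1, 25.3 and 18.2 CPM in ret/wt and at 17.7, 39.8, 17.2 and 34.7 CPM in ret/ret thalamus, a log2 fold change of 0.39 ± 0.31. C5ar1, the receptor of C5a, ranged from 0.259 to 1.87 CPM in ret/wt and from 0.453 to 1.31 CPM in ret/ret thalamus, on 6 to 29 counts a library, and a difference was not detectable at this depth (log2 fold change -0.13 ± 0.65). The edgeR adjusted p was 1 for all 5.

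**Figure D2:**
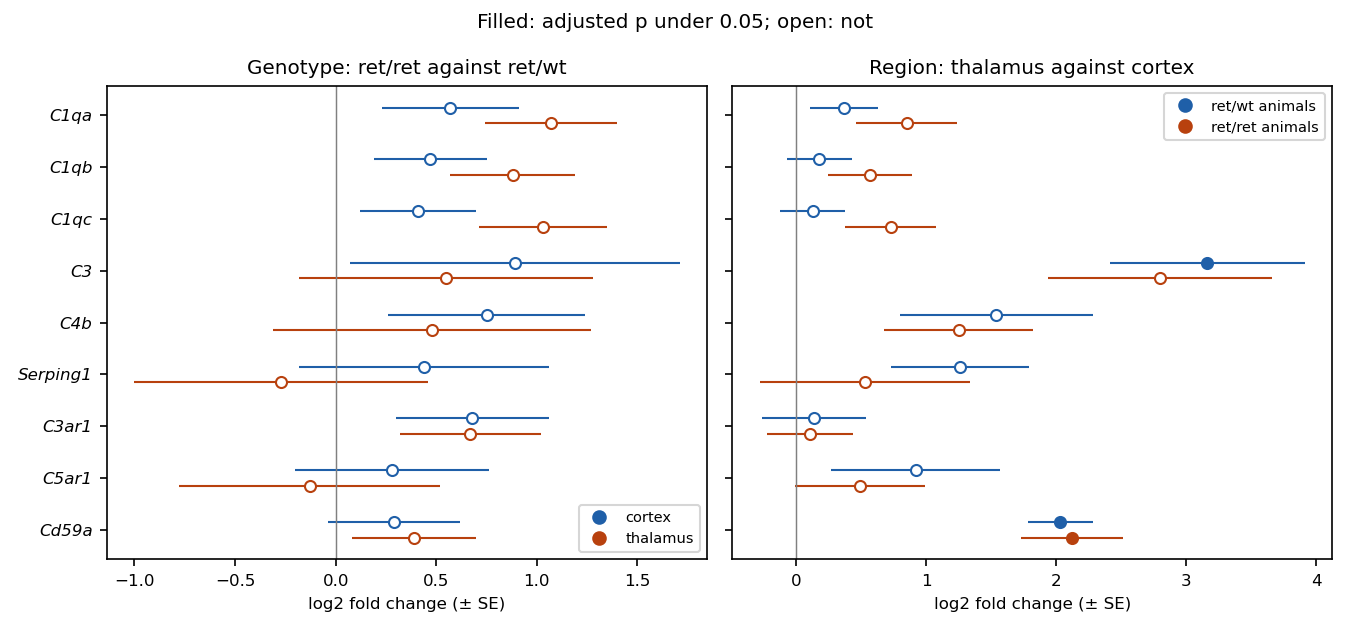
Log2 fold change ± SE (x axis) of each complement gene between genotypes (left, ret/ret against ret/wt) and between regions (right, thalamus against cortex) fitted with edgeR; filled points passed the threshold of 0.05 on adjusted p. No genotype difference is filled, and the filled region differences are C3 in ret/wt animals (3.16) and Cd59a in both genotypes (2.03 and 2.12).

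In cortex, where neither genotype calcifies, all 9 members had a positive difference between ret/ret and ret/wt, none passed the threshold and all 9 overlapped. C1qa was at 25.6, 20.5, 19.1 and 24.8 CPM in ret/wt and at 54.8, 14.7, 29.2 and 33.5 CPM in ret/ret cortex. The ret/ret libraries of C1qa held the highest and the lowest of the 8, with 3 of 4 above every ret/wt library. C1qb ranged from 28.7 to 38.7 CPM in ret/wt and from 28.3 to 75.1 CPM in ret/ret cortex, and C1qc from 18.1 to 30.1 and from 22.3 to 54.1 CPM. The log2 fold changes were 0.57 ± 0.34 for C1qa, 0.47 ± 0.28 for C1qb and 0.41 ± 0.29 for C1qc. Without ret/ret cortex replicate 2, the library with 2488 CPM of cerebellum markers, they were 0.82, 0.65 and 0.57. Without ret/ret cortex replicate 1 they were 0.21, 0.15 and 0.10. That library came from the same animal as ret/ret thalamus replicate 1, so the highest C1q level of each region came from 1 ret/ret animal.

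Of the other members in cortex, C4b was at 13.6, 17.2, 13 and 42.9 CPM in ret/wt and at 65.7, 25.4, 17.6 and 35.9 CPM in ret/ret cortex. Apart from ret/wt replicate 4, every ret/wt library of C4b lay below every ret/ret one, and the log2 fold change of 0.75 ± 0.49 was 1.33 without that library and 0.28 without ret/ret replicate 1. C3ar1 was at 2.04, 2.48, 1.1 and 1.47 CPM in ret/wt and at 3.41, 1.88, 2.67 and 3.26 CPM in ret/ret cortex, a log2 fold change of 0.68 ± 0.38. For C3ar1, 3 of 4 ret/ret libraries lay above all ret/wt ones. Serping1 ranged from 3.91 to 8.32 CPM in ret/wt and from 2.12 to 21.4 CPM in ret/ret cortex, and its value of 0.44 ± 0.62 was -0.42 without ret/ret replicate 2. C3 had 1, 1, 23 and 13 counts in ret/wt and 9, 33, 35 and 3 in ret/ret cortex, which is too few to show a difference (0.89 ± 0.82). The log2 fold change was 0.28 ± 0.48 for C5ar1 and 0.29 ± 0.33 for Cd59a.

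For these 9 genes the edgeR adjusted p in cortex was 0.999 each. The background was 3 called genes of 14288 (0.021%), 538 genes (3.77%) at an unadjusted p under 0.05 and 1.58% that did not overlap and were higher in ret/ret, while 0 of 9 members met any of these. DESeq2 called 38 genes in cortex and no complement member. The median log2 fold change of the 9 was 0.47 in cortex and 0.55 in thalamus, beside 0.01 and -0.02 over all genes tested.

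With the counts of each animal's 2 libraries summed, the genotype difference was 0.92 ± 0.30 for C1qa, 0.75 ± 0.25 for C1qb, 0.81 ± 0.29 for C1qc and 0.71 ± 0.28 for C3ar1 on the log2 scale. These 4 of 9 had an unadjusted p under 0.05 (0.0107, 0.0126, 0.0181 and 0.0301), against 5.13% of 15505 genes. Their adjusted p was 0.752, 0.782, 0.834 and 0.917 by edgeR, which called 2 genes (0.0129%), while DESeq2 called 80, and no member was among either. The other 5 lay between 0.02 ± 0.47 for C5ar1 and 0.66 ± 0.58 for C3. No member separated the 4 ret/ret from the 4 ret/wt animals without overlap, as 2.21% of all genes did in the higher direction.

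Whether the genotype difference was larger in thalamus than in cortex was tested by an interaction over the 16 libraries. The difference of differences was 0.49 ± 0.49 for C1qa, 0.39 ± 0.42 for C1qb and 0.61 ± 0.44 for C1qc on the log2 scale, with unadjusted p of 0.33, 0.365 and 0.181. It was -0.02 ± 0.48 for C3ar1, -0.27 ± 1.02 for C4b and 0.09 ± 0.46 for Cd59a. No member and no other gene passed by edgeR (0% of 15286, 4 with DESeq2), and 0 of 9 members had an unadjusted p under 0.05. The share of all genes under that unadjusted p is not given here. The larger C1q values in thalamus are thus not shown to differ from those in cortex.

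Between regions, the clearest complement difference was that of Cd59a. It was at 4.63, 4.17, 6.37 and 5.81 CPM in ret/wt cortex against the 16.9 to 25.3 CPM of ret/wt thalamus, and at 6.83, 9.73, 3.83 and 4.88 CPM in ret/ret cortex against the 17.2 to 39.8 CPM of ret/ret thalamus. All 8 thalamus libraries lay above all 8 cortex libraries. Cd59a rose in thalamus by a log2 fold change of 2.03 ± 0.25 (4.09-fold) in ret/wt animals, with an adjusted p of 7.69e-04, and by 2.12 ± 0.39 (4.33-fold) in ret/ret animals, with an adjusted p of 0.0116, both by edgeR. Across all alternatives that adjusted p stayed between 1.47e-12 and 0.00467 in ret/wt and between 2.93e-06 and 0.0414 in ret/ret animals. Beside Cd59a, 6 of 6 oligodendrocyte markers were called higher in thalamus in both genotypes. Of all genes, 12.6% were called in either direction in ret/wt and 9.5% in ret/ret animals. The summed level of the oligodendrocyte markers was 9446 to 16358 CPM in thalamus and 1770 to 4419 CPM in cortex. The part of cell makeup in the Cd59a difference was not tested.

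C3, the central component, was also higher in thalamus. In ret/wt animals all 4 thalamus libraries (1.55 to 6.58 CPM) lay above all 4 cortex libraries (0.0731 to 1.01 CPM), a log2 fold change of 3.16 ± 0.75 (edgeR adjusted p = 0.0207). The call was lost without ret/wt cortex replicate 1 (adjusted p = 0.0513) and without ret/wt thalamus replicate 2 (adjusted p = 0.0544), and over all alternatives the adjusted p ranged from 2.07e-04 to 0.0544. In ret/ret animals ret/ret thalamus replicate 2, at 0.626 CPM, fell among the cortex libraries (0.195 to 1.44 CPM). The log2 fold change there was 2.80 ± 0.86 (edgeR adjusted p = 0.0706), and C3 passed without ret/ret thalamus replicate 2 (0.0201), with DESeq2 (0.00467), without the 2 animals with Y-linked reads (0.0135) and with all 16 libraries in 1 fit (0.0456).

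C1q and C3ar1 were not called between regions of ret/wt brain, where thalamus against cortex gave log2 fold changes of 0.37 ± 0.26 for C1qa, 0.18 ± 0.25 for C1qb, 0.13 ± 0.25 for C1qc and 0.14 ± 0.40 for C3ar1. In ret/ret animals, thalamus against cortex gave 0.85 ± 0.39, 0.57 ± 0.32, 0.73 ± 0.35 and 0.11 ± 0.33. With the animal as a block, C1qc reached 0.71 in ret/ret animals (edgeR adjusted p = 0.0464), against 0.219 without the block. C4b had 1.54 ± 0.74 in ret/wt and 1.25 ± 0.57 in ret/ret animals, and Serping1 1.26 ± 0.53 and 0.53 ± 0.81, with no adjusted p under 0.05. Without ret/wt thalamus replicate 3, Serping1 had a log2 fold change of 1.59 (edgeR adjusted p = 0.0335, against 0.155 with it). C5ar1 had 0.92 ± 0.65 and 0.49 ± 0.50. Called members numbered 2 of 9 in ret/wt animals, where 12.6% of 14442 genes were called, and 1 of 9 in ret/ret animals, where 9.5% of 14715 were. The background of genes higher in thalamus without overlap was 8.97% in ret/wt animals, where 2 of 9 members did so, and 8.18% in ret/ret animals, where 1 of 9 did.

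To set microglial C1q against the other members within a library, the log2 CPM of C1qa was subtracted from that of each. C1qb and C1qc stayed near C1qa in all groups, at 0.15 to 0.95 and -0.20 to 0.60 log2 units over the libraries. Between genotypes in thalamus their ratios differed by -0.18 and -0.09, with overlap. The mean log2 ratio of C1qb to C1qa was 0.61 in ret/wt cortex, 0.57 in ret/ret cortex, 0.42 in ret/wt thalamus and 0.24 in ret/ret thalamus, and that of C1qc was 0.20, 0.12, 0.00 and -0.08. Per length, C1qa made up 32.6% ± 3.3, 33.4% ± 4.2, 35.4% ± 2.6 and 37.9% ± 1.2 of the 3 chains in those 4 groups (SD, n = 4), C1qb 42.9% to 47.3% and C1qc 19.2% to 20.1% in mean.

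No other member separated the genotypes once set against C1qa. In thalamus the ratio differed between ret/ret and ret/wt by -0.97 for C3, -0.17 for C4b, -1.48 for Serping1, -0.40 for C3ar1, -0.93 for C5ar1 and -0.75 for Cd59a on the log2 scale, and all 6 overlapped. The median over all genes tested was -1.06, and 28.9% of genes were lower in this ratio without overlap, since C1qa itself was higher in ret/ret thalamus. C3, C4b, C3ar1, C5ar1 and Cd59a thus fell less against C1qa than the median gene did. Serping1 fell more in mean, within overlapping groups. For C4b the sign of the difference depended on the chain, with 0.01 against C1qb in place of C1qa. In cortex the differences were 0.76 for C3, 0.33 for C4b, -0.45 for Serping1, 0.26 for C3ar1, -0.15 for C5ar1 and -0.22 for Cd59a, all overlapping, beside a median of -0.43 and a background of 3.33%.

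Between regions of ret/wt animals, only the ratio of Cd59a to C1qa separated, of the 8 ratios computed. The share of all genes whose ratio to C1qa separates between regions was not computed, so this is a description. In level, 8.97% of genes were higher in ret/wt thalamus without overlap. The ratio of Cd59a to C1qa is given per library. This ratio was -2.45, -2.28, -1.57 and -2.08 in cortex and -0.37, 0.16, -0.10 and -1.26 in thalamus. Cd59a thus stood 1.71 log2 units closer to C1qa in ret/wt thalamus, with no overlap between the regions. In ret/ret animals the same difference was 1.18, and the regions overlapped, with thalamus replicate 1 (-2.44) among the cortex libraries.

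**Figure D3:**
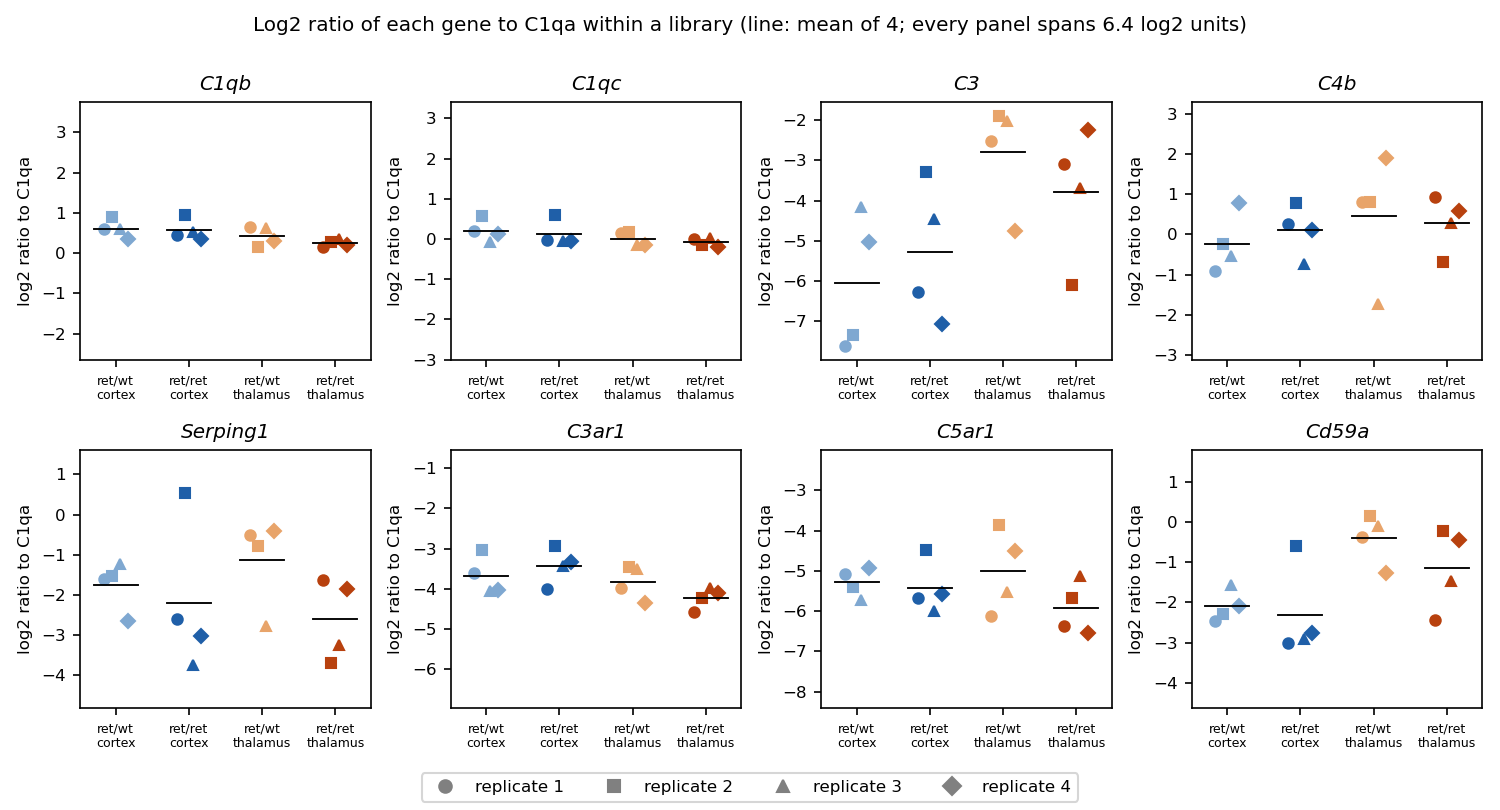
Log2 ratio of each complement gene to C1qa within each library (y axis, every panel spanning the same distance), by group; symbols mark replicates and black lines the group mean of 4. C1qb and C1qc stay within narrow bands, with group means of 0.24 to 0.61 and -0.08 to 0.20, whereas C4b, Serping1 and C3 scatter over several log2 units and overlap between genotypes in both regions.

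The markers of cell types were read beside these values. Between genotypes in thalamus, 9 of 12 microglial markers had an unadjusted p under 0.05 in edgeR, against 3.93% of all genes tested, and none was called. All 12 of these markers had a positive difference between ret/ret and ret/wt, with a median log2 fold change of 0.69. Their summed level was 441 to 581 CPM in ret/ret and 299 to 354 CPM in ret/wt thalamus, without overlap, as for C1q. C1qa amounted to 7.3, 7.13, 7.65 and 13% of that sum in ret/wt and to 16.5, 9.82, 10.7 and 10.4% in ret/ret thalamus. As a share of the microglial markers, C1qa thus overlapped between the genotypes, with ret/wt replicate 4 above 3 of 4 ret/ret libraries. In cortex the share was 6.14% ± 1.04 in ret/wt and 7.45% ± 2.23 in ret/ret (SD, n = 4). Of 7 border macrophage markers, 6 were tested in thalamus and all 6 had negative values, with a summed level of 6.45 to 22.2 CPM in ret/ret and 9.69 to 28.1 CPM in ret/wt.

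By likeness over the 16 libraries, measured as the root-mean-square difference of centred log2 CPM among 12772 genes, the nearest genes to C1qa were C1qc (0.23), C1qb (0.24), Tyrobp (0.26), Cyth4 (0.28) and Ly86 (0.30). The spread of C1qa itself on that scale was 0.68. Tyrobp encodes a signalling adaptor of microglial receptors, among them TREM2. C3ar1 stood at place 109 at 0.46, on 25 to 89 counts a library. C4b was at place 7848 (0.88) from C1qa, but its own spread of 1.22 was larger than that of C1qa. Ranked from C4b, C1qa was at place 179, C1qc at 180 and C1qb at 621, ahead of Serping1 at 1219 (1.04). All these genes share libraries and depth, so the distances are descriptions.

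C4b and Serping1 were also set beside other markers. Serping1 was nearest to Vtn (0.37), Aldh1a2 (0.39), Ptgds (0.40), Fbln1 (0.43) and Aebp1 (0.43), with 1.12 for its own spread. Vtn is on the pericyte list used here, but it did not follow the pericyte marker Rgs5. Over both regions Rgs5 was at 43.6 to 68.6 CPM in ret/wt and 13.8 to 22.6 CPM in ret/ret libraries. Vtn overlapped, at 22.4 to 221 and 15.4 to 146 CPM. Pdgfrb, on the same list, overlapped as well, at 10.6 to 24.6 and 7.33 to 21.9 CPM. Aldh1a2 and Ptgds are known from the meninges. The 6 libraries with the most Serping1 were the same 6, of 16, that had the highest summed level of 6 fibroblast markers (a comparison chosen after the values were seen). The 8 libraries with the most Serping1 shared 7 with the 8 highest in that summed level. With the summed pericyte markers, Vtn among them, the top 6 shared 4 and the top 8 shared 6. The fibroblast sum was 466 CPM in ret/ret thalamus replicate 1 and 370 CPM in ret/wt thalamus replicate 4. These 2 libraries led Serping1 and C4b, and the other 14 had 45.1 to 254 CPM of fibroblast markers. Ret/ret cortex replicate 2, with 21.4 CPM of Serping1, had 220 CPM of fibroblast markers beside its 2488 CPM of cerebellum markers. The part of these cells in the Serping1 values was not tested.

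**Figure D4:**
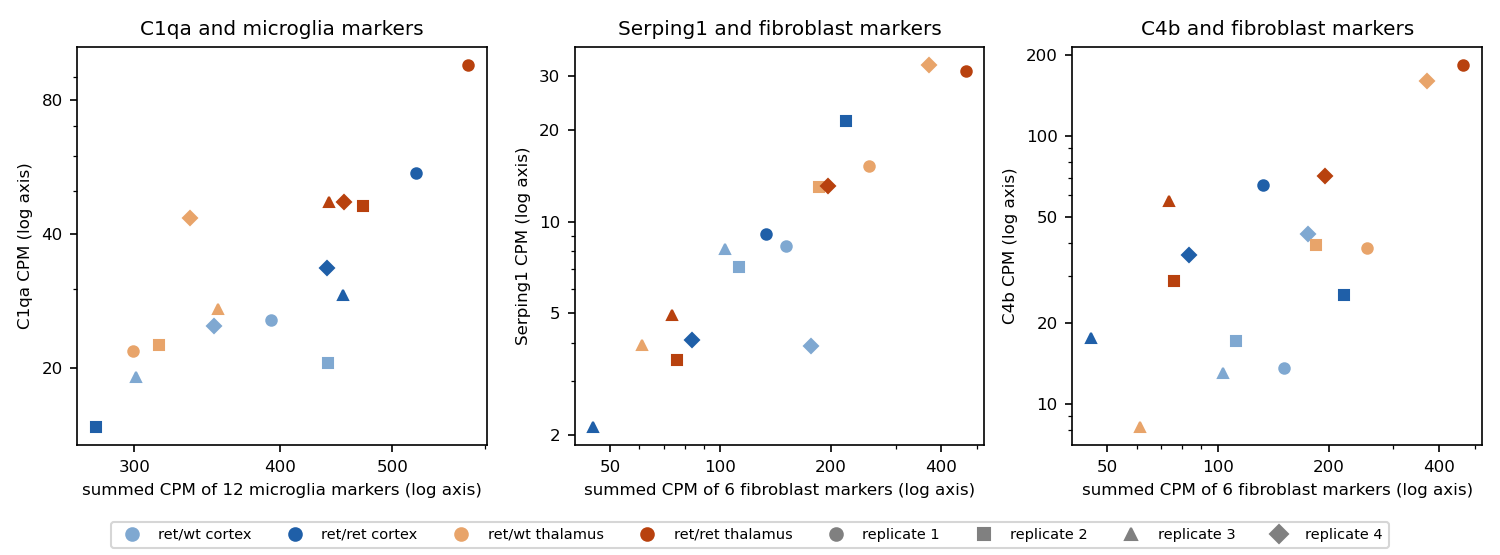
Level of C1qa, Serping1 and C4b (CPM, log axis) against the summed level of microglia or fibroblast markers in the same library (CPM, log axis); colours mark groups and symbols replicates, 16 libraries a panel. The 2 libraries with the most Serping1 (31.1 and 32.6 CPM) and C4b (184 and 161 CPM) are those with the most fibroblast markers (466 and 370 CPM).

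For C4b, which astrocytes and oligodendrocytes make as well as cells of the vessel wall, the nearest genes were Lgals3bp (0.60), Nnat (0.63), Tspo (0.63), Gm19935 (0.64) and Eln (0.65), with 1.22 for its own spread. Of the 6 libraries with the most C4b, 5 were among the 6 with the highest sum of 10 interferon response genes. For 7 reactive astrocyte markers 4 were shared, for the fibroblast markers 3 and for the pericyte markers 2. That order depended on the cut, since among the top 8 libraries 6 were shared with each of these lists. These comparisons were not planned, and the number that other genes would share was not computed. The reactive astrocyte sum reached 945 CPM in ret/ret thalamus replicate 1 and 1100 CPM in cortex of the same animal, the libraries with the highest and the fourth highest C4b, and was 104 to 536 CPM in the other 14. Interferon response genes summed to 83.2 to 186 CPM in ret/ret and 44.8 to 60.1 CPM in ret/wt cortex. In thalamus the genotypes overlapped, at 72 to 246 CPM in ret/ret and 63.5 to 118 CPM in ret/wt. In ret/wt cortex replicate 4, where C4b stood at 42.9 CPM, choroid plexus markers reached 1700 CPM, against 202 to 579 CPM in every other library. The part of any of these in the C4b values was not tested.

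The nearest genes to C3 were Fam196b (1.10), Gpr139 (1.12), Sparc (1.19), Bbox1 (1.19) and P2ry1 (1.21), at a spread of 2.0 for C3 itself, and Cd59a was at place 52 (1.41). Those nearest to Cd59a were Rimkla (0.40), Tunar (0.42), Car14 (0.44), Xlr3a (0.44) and Lhfpl3 (0.45), at a spread of 1.11. C3 had as few as 1 count in a library.

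Of 47 further complement genes on the list, 42 were in the table, and none passed in a genotype comparison. In thalamus 26 were tested, 12 with positive and 14 with negative values, and the median of -0.02 was that of all genes. Of these 26, 4 had an unadjusted p under 0.05 in edgeR, Itgax among them, against 3.93% of all genes tested. The 3 that were higher in ret/ret without overlap at a mean log2 CPM of at least 0 were receptors, against 1.7% of all genes tested that were higher without overlap. Itgam, a chain of complement receptor 3 on microglia, was at 15.8 to 25.1 CPM in ret/wt and 28.6 to 34.7 CPM in ret/ret thalamus (log2 fold change 0.55 ± 0.19). Cd93, once described as a receptor of C1q and carried by endothelial cells, was at 7.41 to 10.3 and 10.6 to 20.8 CPM (0.75 ± 0.26). Itgax, a chain of complement receptor 4 that marks activated microglia, had 2, 3, 2 and 0 counts in ret/wt and 189, 54, 36 and 25 counts in ret/ret thalamus. All 4 ret/wt libraries of Itgax were at or under the floor of 3 counts, so no fold is given, and its edgeR adjusted p was 0.353, between 1.62e-05 and 1 over the alternatives. Itgax passed the filter on low counts only through its ret/ret libraries, so its p and its lack of overlap are descriptions only. Its place among the 4 and the 3 counted above therefore carries no weight.

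In cortex 21 of those genes were tested, 12 with positive values. At an unadjusted p under 0.05 in edgeR there were 3, against 3.77% of all genes tested. Cd93 was at 7.69, 8.11, 9.23 and 5.38 CPM in ret/wt and at 25.3, 15.7, 21.8 and 15 CPM in ret/ret cortex, a log2 fold change of 1.38 ± 0.25. All ret/ret libraries of Cd93 lay well above all ret/wt ones, and its edgeR adjusted p of 0.354 missed the threshold, with a range from 7.71e-04 to 1 over the alternatives. With both regions summed, Itgax, Cd93 (1.04 ± 0.19) and the membrane regulator Cr1l (0.25 ± 0.12) were higher in ret/ret animals without overlap, and none of 30 tested passed. Of all genes tested, 2.21% were higher without overlap there, and the limit given for Itgax holds here too.

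Between regions, Csmd1, a neuronal complement regulator, fell in thalamus by 1.43 ± 0.22 on the log2 scale in ret/wt animals (adjusted p = 0.00261) and by 1.58 ± 0.30 in ret/ret animals (adjusted p = 0.0129), by edgeR. It was at 71.7 to 103 CPM in ret/wt cortex and 21.1 to 39.2 CPM in ret/wt thalamus, and at 36.9 to 87.2 and 17.6 to 29.7 CPM in ret/ret animals. Srpx2, a neuronal protein that binds C1q, rose in ret/wt thalamus by 1.93 ± 0.50 (adjusted p = 0.0307, by edgeR, and 0.00448 to 0.116 over the alternatives), from 0.484 to 1.18 CPM in cortex to 2.2 to 6.64 CPM in thalamus. These were the only 2 of 23 listed genes tested that passed in ret/wt animals, and Csmd1 the only 1 of 26 in ret/ret animals.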

How the data were processed

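PolyA-enriched, stranded RNA-seq libraries of 16 brain pieces from 8 mice were analysed. The deposited table gives estimated counts per gene, most of them not whole. Per the submitters' processing notes, kallisto 0.44.0 and GRCm38.p6 were used; how transcripts were summed to genes is not given in the sources used here. The expected counts deposited by the authors were rounded to whole numbers. Genes passing edgeR's filterByExpr (minimum count 10, minimum total 15) in the libraries of a comparison were tested with edgeR 4.0.16 (TMM, glmQLFit, glmQLFTest) in R 4.3.3, with Benjamini-Hochberg adjustment over all genes tested and a threshold of 0.05. All 9 members passed that filter in each of the 6 comparisons, and every gene kept there counts towards its background. Animals were the unit where both regions were summed. Log2 CPM used a prior count of 1. Symbols (for 99% of identifiers), coordinates and exon lengths came from GENCODE gene models of GRCm38. The fits were tested on simulated data.

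Alternatives were DESeq2 1.42.0, its size factors in edgeR, no filter beyond 1 count, limma-voom (limma 3.58.1), all 16 libraries in 1 fit, animals or libraries left out, and a replicate block. Same-numbered libraries of a genotype come from 1 animal, per the labels; their residuals correlated between -0.0171 and 0.239. Members, gene lists and tests were chosen with earlier results of these data known. Of the 47 further complement genes, the text names those called in a comparison, or not overlapping between genotypes at a mean log2 CPM of at least 0, except 1 that is not reported here; genes of like pattern are the nearest 5 of those with a mean log2 CPM of at least 1. A floor of 3 counts covers counting error only.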

Additional observations from a re-analysis of the deposited data

Results flagged for a closer look

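In 5 of 36 sets of 4 libraries (9 genes in 4 groups), 1 library stood far from the other 3, by a rule that chance meets in about 1 in 20 sets. Ret/ret thalamus replicate 1 was high in all 3 C1q chains, with C1qa at 95.9, C1qb at 106 and C1qc at 95.1 CPM. C1qc was also high in ret/wt thalamus replicate 4, at 38.9 CPM. C4b was high in ret/wt cortex replicate 4, at 42.9 CPM, the library with the most choroid plexus markers. The 3 C1q chains vary together, so their 3 sets are not independent.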

How the results depend on the processing

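The members' genotype differences stayed without a call under every alternative run, and Cd59a kept its call between regions in both genotypes. DESeq2 called 37 genes in thalamus, 38 in cortex, 80 with regions summed, 2591 between regions of ret/ret animals and 4 in the interaction. All 16 libraries in 1 fit called 3 in thalamus and 7 in cortex. Without the 2 animals with Y-linked reads the calls were 1 in cortex, 0 with regions summed and 2564 between regions of ret/ret animals. With regions summed, the animal as a random block gave 17 calls and leaving out ret/wt animal 4 and ret/ret animal 1 gave 1. Leaving out 1 library or animal at a time gave 0 to 2 calls in cortex, 1 to 2 with regions summed, 627 to 2007 between regions in ret/ret and 1178 to 1797 in ret/wt animals, where fewer libraries were fitted. Across genotypes, equal numbers are different animals (residual correlations -0.125 to 0.151, 1 of 16 libraries nearest to its own number), and the replicate block gave 0 calls in cortex. Within animals, 5 of 16 libraries were nearest to their own animal's other region, with 4 candidate libraries for each. The block changed no member's call other than C1qc in ret/ret animals. No paired fit ties the summed animals.

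Directions turned as follows, always without a call. In thalamus C3 was -0.17 without ret/wt replicate 4 and ret/ret replicate 1, and C5ar1 0.24 there, 0.24 with limma-voom and 0.12 with the replicate block. In cortex Serping1 was -0.06 with limma-voom and -0.33 without the animals with Y-linked reads. With regions summed C3 was -0.02 and Serping1 -0.22 without ret/wt animal 4 and ret/ret animal 1; Serping1 was -0.21 with limma-voom, -0.26 with the random block and -0.18, like C5ar1 at -0.16, without the animals with Y-linked reads. Without those animals C3ar1 was -0.14 between regions in ret/wt, and in the interaction Serping1 was 0.05 and C3ar1 0.21. In the interaction C4b was 0.17 with limma-voom, 0.07 with the replicate block and 0.15 without the 2 thalamus libraries. The ratio of C4b to C1qb in thalamus was 0.01. Leaving out 1 library at a time spanned, in thalamus, -0.25 to 1.64 for C4b, -1.16 to 0.36 for Serping1 and -0.47 to 0.34 for C5ar1; in cortex, -0.42 to 0.78 for Serping1 and -0.01 to 0.47 for Cd59a; with regions summed, -0.07 to 1.46 for C4b, -0.45 to 0.39 for Serping1 and -0.19 to 0.35 for C5ar1. Between regions it spanned -0.35 to 1.42 for Serping1 and -0.05 to 0.24 for C3ar1 in ret/ret, and -0.03 to 0.35 for C1qb, -0.09 to 0.20 for C1qc and -0.04 to 0.35 for C3ar1 in ret/wt animals. In the interaction it spanned -1.05 to 0.03 for C3, -0.97 to 0.84 for C4b, -1.59 to 0.14 for Serping1, -0.22 to 0.15 for C3ar1, -0.74 to 0.02 for C5ar1 and -0.13 to 0.39 for Cd59a. The ratio to C1qa spanned -0.89 to 0.31 for C4b in thalamus and, in cortex, -1.37 to 0.07 for Serping1, -0.47 to 0.04 for C5ar1 and -0.79 to 0.01 for Cd59a. Other causes of these shifts were not tested. The sum of C4a and C4b was not run. C3 in cortex and C5ar1 were limited by depth.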
